A study of Mus musculus with 6 samples.

Results

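Replication-dependent histone genes supply the histone proteins that package newly copied DNA. The rows examined were those whose gene symbol begins with *Hist1h* to *Hist4h*, and 9 of the 61880 rows of the deposited count matrix met this. Each of the 9 rows was the only row of its assembled locus (9 of 53912 loci), so the sum over the locus equals the row itself. The GENCODE annotation of GRCm38 names 70 genes in this way, and all 70 had a row in the matrix, but 61 of them were listed under newer symbols (for example *H2bc4* for *Hist1h2bc*). The 9 rows are therefore those that kept the older symbol, and the other 61 genes served as the comparison. The 9 rows comprised 4 H2A rows (*Hist1h2al*, *Hist1h2an*, *Hist1h2ao* and *Hist1h2ap*), 3 H2B rows (*Hist1h2bp*, *Hist1h2bq* and *Hist1h2br*) and 2 H4 rows (*Hist1h4m* and *Hist1h4n*), with no H1 or H3 row.

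The RNA came from epithelial cells that had been isolated from inguinal mammary glands of female *fat-1* transgenic and wild-type (WT) mice, and each genotype had 3 pooled samples. The desaturase encoded by *fat-1*, a roundworm gene, converts *n*-6 into *n*-3 PUFA. Both genotypes were FVB/NJ mice aged 6 to 8 weeks, fed a safflower oil diet with 10% fat by weight, which is rich in *n*-6 PUFA. Each sample pooled the glands of several mice, so the spread between individual mice cannot be seen and the transgene itself was not analysed here. Total counts per sample lay between 204539059 and 232148824. Levels are given in CPM, counts scaled to the normalized total of the sample, and values for a genotype are in the order of its samples 1, 2 and 3. All 8 luminal, 6 basal and 6 immune marker genes were above 0 in all 6 samples, 3 fibroblast markers summed to between 1116 and 3163 CPM, and the adipocyte markers were near 0 (at most 0.729 CPM in sum). Of the epithelial markers, the summed luminal markers ranged from 716 to 3019 CPM over *fat-1* and from 761 to 2467 CPM over WT pools. *fat-1* sample 1 and WT sample 1 had the highest luminal and basal sums and the lowest immune sums, and *fat-1* sample 2 and WT sample 3 the reverse.

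The nucleosome is built of the core histones H2A, H2B, H3 and H4, and H1 binds the DNA between nucleosomes. Replication-dependent histone genes lie in clusters, often in divergent pairs of an H2A and an H2B gene that share a promoter, and are transcribed mainly in S phase. Most of their mRNAs are not polyadenylated but end just after a conserved stem-loop, which is bound by the stem-loop binding protein (Slbp). Some of these genes also make polyadenylated mRNA from a signal further downstream, which has been described in cells that are not dividing.

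The annotated 3′ ends differed among the 9 genes. A stem-loop of 16 bases (6 pairs and a loop of 4 bases, opening with GG and closing with CC) was searched for in the last 100 bases of each transcript, and the AATAAA poly(A) signal in the last 40 bases, on the transcribed strand. The stem-loops are shown with their flanks because they are the feature that most of these mRNAs have in place of a poly(A) tail, and the capitals mark the stem and the loop.
Hist1h2ao-201: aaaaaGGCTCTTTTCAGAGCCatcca
Hist1h2ap-201: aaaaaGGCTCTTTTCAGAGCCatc
Hist1h2bp-201: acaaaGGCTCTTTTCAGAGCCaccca
Hist1h4m-201: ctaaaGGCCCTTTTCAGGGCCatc
Hist1h4n-201: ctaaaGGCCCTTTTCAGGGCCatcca
The loop was the same in all 5, and the H4 stem differed from the H2A and H2B stem. Another transcript of each H2B gene carried a poly(A) signal and no stem-loop near its end, and here the capitals mark the signal. The longest transcripts of *Hist1h2bq* (2015 bases) and *Hist1h2br* (2197 bases), annotated as nonsense-mediated decay, carried neither.
Hist1h2bp-202: acattataaaAATAAAggtttcaatc
Hist1h2bq-202: aagaatattaAATAAAtttgtttctt
Hist1h2br-203: aagaatattaAATAAAtttgtttctt
Thus 5 of the 9 genes had an annotated stem-loop transcript, 3 had a transcript with a poly(A) signal, and *Hist1h2bp* had one of each. The annotated transcripts of *Hist1h2an* and *Hist1h2al* held neither in these windows. Among the other 61 genes, 18 had the stem-loop and 12 had the poly(A) signal by the same search. Some annotated transcripts are short (393 bases for *Hist1h2an*), and a stem-loop or signal beyond an annotated end would be missed. The counts thus describe the annotation and not the RNA in these samples. Over all 141767 annotated transcripts, the stem-loop was found in 0.181% and the poly(A) signal in 25.8%. *Hist1h2al* is annotated as a processed pseudogene.

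In the genome, 8 of the 9 genes lie within 50705 bases at chr13:21786826-21837530 (GRCm38), and the pseudogene *Hist1h2al* lies apart at chr13:51202727-51203065. The 8 genes include 3 divergent pairs of an H2B and an H2A gene, whose annotated 5′ ends are 242 (*Hist1h2bp* and *Hist1h2an*), 267 (*Hist1h2bq* and *Hist1h2ao*) and 235 bases (*Hist1h2br* and *Hist1h2ap*) apart. The stretch also holds near copies. *Hist1h2ao* and *Hist1h2ap* were identical over 452 aligned bases with 0 mismatches and 58 gap positions. *Hist1h2bq* and *Hist1h2br* were identical over 1254 bases with 0 mismatches and 2 gap positions, and *Hist1h4m* and *Hist1h4n* over 401 bases with 1 mismatch and 28 gap positions. Of all stretches of 100 bases, the read length, 92.7% in *Hist1h2ao* and 92.2% in *Hist1h2ap* also occurred in other annotated genes. The share was 94.8% in *Hist1h2bq*, 86.4% in *Hist1h2br*, 88.1% in *Hist1h4m*, 80.7% in *Hist1h4n* and 83.3% in *Hist1h2an*, and it was lowest in *Hist1h2bp* (31.1%) and *Hist1h2al* (19.2%). How the aligner and the assembler placed reads among such copies is not stated in the sources used here, so the levels of single copies are uncertain.

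Promoter windows of 300 bases from RefSeq (GRCm38.p6) were present for 8 of the 9 genes, all but *Hist1h2al*, and for 54 of the other 61 histone genes. Each of the 54 counted once, if any of its windows held the motif. The CCAAT box was found on either strand in 6 of the 8 windows (75.0%), against 47 of the 54 other histone genes (87.0%) and 37.4% of all 32851 windows. The share differed by class. With the 8 genes included, it was found in 18 of 18 H2A, 16 of 16 H2B and 3 of 12 H4 genes. The H4 genes *Hist1h4m* and *Hist1h4n* were those without it among the 8. The sequence TATAAA was found in 4 of the 8, against 31 of 54 (57.4%) in the other histone genes and 13.6% of all windows. The windows of *Hist1h2an* and *Hist1h2bp* share 261 bases and hold the same TATAAA, read on opposite strands. The octamer ATTTGCAT was found in 0 of the 8, in 14 of the 54 other histone genes and in 1.74% of all windows. All motifs were searched on both strands and did not overlap each other in the 8 windows. Their distance from the start of transcription was not considered, so a match need not lie where a promoter element acts. The 2 upstream stretches of 250 bases printed here were chosen because they belong to copies whose levels are compared below. The capitals mark CCAAT or its reverse ATTGG in the first and TATAAA in the second, which are the minus strand of chr13:21810200-21810449 and the plus strand of chr13:21811496-21811745.
Hist1h2bq: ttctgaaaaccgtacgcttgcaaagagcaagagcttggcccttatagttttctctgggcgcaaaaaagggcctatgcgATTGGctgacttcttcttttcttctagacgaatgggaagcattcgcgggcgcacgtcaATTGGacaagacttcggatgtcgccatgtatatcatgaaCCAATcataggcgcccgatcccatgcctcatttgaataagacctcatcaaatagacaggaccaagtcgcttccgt
Hist1h4m: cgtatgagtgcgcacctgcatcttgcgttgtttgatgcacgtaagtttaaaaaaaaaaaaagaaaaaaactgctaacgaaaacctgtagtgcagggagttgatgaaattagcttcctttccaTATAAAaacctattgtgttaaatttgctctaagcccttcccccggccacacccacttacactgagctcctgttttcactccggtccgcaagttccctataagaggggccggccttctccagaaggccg
The window of *Hist1h2br* was 100% identical to that of *Hist1h2bq*, and those of *Hist1h4m* and *Hist1h4n* were 99.0% identical. The window of *Hist1h2bq* shared 267 bases with that of its divergent neighbour *Hist1h2ao*, read on the opposite strand.

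*Hist1h4m*, an H4 gene with the stem-loop, had the highest level of the 9 rows and held between 48.9% and 65.4% of their summed CPM in each sample. Its levels were 11.9, 19.0 and 15.4 CPM across *fat-1* and 10.9, 11.6 and 17.7 CPM across WT. *fat-1* sample 2 and WT sample 3 were the highest, and the genotypes overlapped. The log2 fold change, *fat-1* over WT, was 0.20 ± 0.27 (SE, n = 3 per genotype), with an unadjusted *p*-value of 0.484 by the quasi-likelihood test of edgeR. Its near copy *Hist1h4n* had 0.695, 0.495 and 0.360 CPM across *fat-1* and 0.616, 0.712 and 0.427 CPM across WT. WT sample 2 was the highest and *fat-1* sample 3 the lowest for *Hist1h4n*, with a log2 fold change of −0.18 ± 0.33 (SE, n = 3 per genotype, edgeR unadjusted *p* = 0.603).

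**Figure D1:**
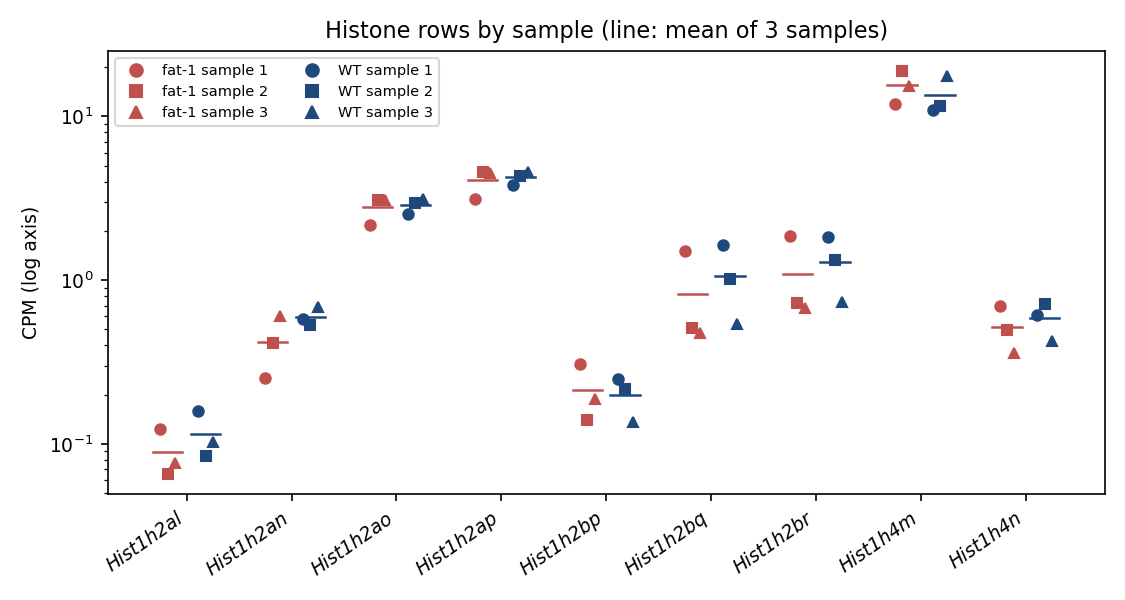
Level of each of the 9 histone rows in CPM on a log axis, with *fat-1* samples in red and WT samples in blue, the marker shape for the sample number, and a line for the mean of 3 samples. *Hist1h4m* lies highest, and the *fat-1* and WT samples overlap in all 9 rows.

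The H2A genes *Hist1h2ap* and *Hist1h2ao* came next. *Hist1h2ap* had 3.13, 4.59 and 4.52 CPM across *fat-1* and 3.82, 4.34 and 4.58 CPM across WT. *Hist1h2ao* had 2.16, 3.10 and 3.10 CPM across *fat-1* and 2.55, 2.95 and 3.11 CPM across WT. For both genes *fat-1* sample 1 was the lowest and WT sample 1 the second lowest, and the other 4 samples lay close together. Their log2 fold changes were −0.06 ± 0.21 and −0.04 ± 0.21 (SE, n = 3 per genotype). These were the least variable of the 9 rows, with a coefficient of variation over all 6 samples of 14.0% and 13.8%.

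*Hist1h2an*, an H2A gene, had 0.252, 0.411 and 0.600 CPM across *fat-1* and 0.579, 0.531 and 0.685 CPM across WT. Its *fat-1* samples 1 and 2 were below all WT samples and *fat-1* sample 3 was within the WT range. Its log2 fold change of −0.51 ± 0.34 (SE, n = 3 per genotype) was the largest in size of the 9, and its edgeR *p*-value of 0.193 (unadjusted) was the smallest. The pseudogene *Hist1h2al* was the lowest row, with 26, 14 and 16 counts across *fat-1* and 34, 19 and 21 counts across WT, and a log2 fold change of −0.37 ± 0.39 (SE, n = 3 per genotype).

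The H2B genes *Hist1h2bq* and *Hist1h2br* varied most. *Hist1h2bq* had 1.5, 0.509 and 0.475 CPM across *fat-1* and 1.63, 1.02 and 0.539 CPM across WT. *Hist1h2br* had 1.85, 0.724 and 0.677 CPM across *fat-1* and 1.83, 1.32 and 0.738 CPM across WT. Samples 1 of both genotypes were the highest, WT sample 2 was between, and the other 3 samples were low. The spread within a genotype was therefore wide, with a coefficient of variation of 70.3% (*fat-1*) and 51.6% (WT) for *Hist1h2bq*, the highest of the 9 rows. The log2 fold changes were −0.36 ± 0.61 for *Hist1h2bq* and −0.26 ± 0.52 for *Hist1h2br* (SE, n = 3 per genotype). *Hist1h2bp* was also highest in samples 1, then in WT sample 2, at a lower level, with 65, 30 and 39 counts across *fat-1* and 53, 49 and 28 counts across WT, and a log2 fold change of 0.08 ± 0.39 (SE, n = 3 per genotype).

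Per kilobase of annotated exon, the mean level over the 6 samples was 35.9 CPM per kb for *Hist1h4m*, 8.64 for *Hist1h2ap*, 5.89 for *Hist1h2ao*, 1.30 for *Hist1h2an* and 1.28 for *Hist1h4n*. The other rows were at 0.538 (*Hist1h2br*), 0.469 (*Hist1h2bq*), 0.300 (*Hist1h2al*) and 0.292 (*Hist1h2bp*) CPM per kb. The SD over the 6 samples was 8.51 for *Hist1h4m*, 1.21 for *Hist1h2ap* and 0.813 for *Hist1h2ao*, so these 3 were apart from each other and from the rest, while the neighbours in each of the pairs *Hist1h2an* and *Hist1h4n*, *Hist1h2br* and *Hist1h2bq*, and *Hist1h2al* and *Hist1h2bp* lay within their spread. The H2B genes *Hist1h2bq* and *Hist1h2br* have exons of 2015 and 2212 bases in all their transcripts, so their level per kilobase depends on which transcripts were present.

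By genotype, 0 of the 9 rows passed an adjusted *p*-value of 0.05 in the quasi-likelihood test (edgeR, adjusted by Benjamini–Hochberg) over all 30683 tested rows (0.0% of which passed). At the unadjusted threshold of 0.05 also 0 of the 9 rows passed, against 2.21% of all tested rows. Each of the 9 had an adjusted *p*-value of 1.00 and a 95% interval that included 0. The interval was widest for *Hist1h2bq*, from −1.85 to 1.13, and narrower for *Hist1h2ao* (−0.56 to 0.47), *Hist1h2ap* (−0.57 to 0.45) and *Hist1h4m* (−0.46 to 0.87). No row had genotypes without overlap (0 of 9, against 5.26% of all tested rows). The log2 fold change was positive for 2 rows and negative for 7, with a median of −0.18, while 51.2% of all tested rows were positive with a median of 0.00. The 7 negative rows include the near copies *Hist1h2ao* and *Hist1h2ap*, and *Hist1h2bq* and *Hist1h2br*, which are not separate results. Of the other 61 histone genes, 50 were tested, of which 21 had a positive and 29 a negative log2 fold change with a median of −0.07, and 0 passed the unadjusted threshold. As locus sums, 0 of the 9 also passed either threshold, 0 had genotypes without overlap (4.15% of all tested loci) and 2 were positive (50.6%). Of the 24061 tested loci, 0.0% passed the adjusted and 1.14% the unadjusted threshold, and the smallest unadjusted *p*-value of the 9 by edgeR was 0.179, with all adjusted *p*-values 1.00. Without *fat-1* sample 3, *Hist1h2an* passed the unadjusted threshold as a row (edgeR unadjusted *p* = 0.0461, adjusted *p* = 1.00).

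**Figure D2:**
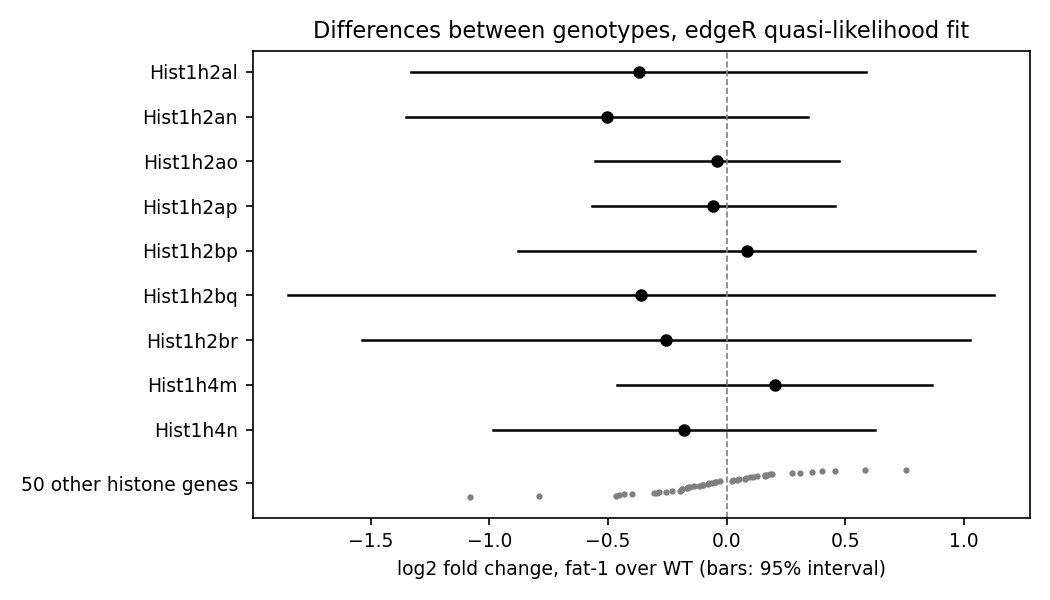
Log2 fold change of *fat-1* over WT with its 95% interval for the 9 histone rows (black), and the log2 fold changes of the 50 other histone genes that were tested (grey, without intervals). All 9 intervals cross 0.

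Added together, the 9 rows came to 22.0, 29.0 and 25.4 CPM across *fat-1* and 22.4, 22.8 and 28.0 CPM across WT. The mean was 25.4 ± 3.51 CPM (SD, n = 3) in *fat-1* and 24.4 ± 3.15 CPM (SD, n = 3) in WT, a log2 ratio of 0.06. Without *Hist1h4m* the log2 ratio was −0.13. The sum hid classes with different orders of the samples. The summed H2B rows were at 3.66, 1.37 and 1.34 CPM across *fat-1* and 3.71, 2.56 and 1.41 CPM across WT, high in samples 1 of both genotypes. The summed H4 rows were at 12.6, 19.5 and 15.8 CPM across *fat-1* and 11.6, 12.3 and 18.1 CPM across WT, and the summed H2A rows at 5.67, 8.17 and 8.29 CPM and at 7.11, 7.90 and 8.47 CPM. The H2A sum was thus lowest in samples 1 of both genotypes, and the H4 sum in those samples and WT sample 2. In the other 61 genes the H4 sum was instead highest in samples 1, with 7.54, 3.78 and 3.72 CPM across *fat-1* and 7.04, 4.81 and 3.18 CPM across WT, and the H2B sum was also highest in samples 1 (59.4 and 65.7 CPM, against 27.6 to 47.2 CPM in the other 4 samples). Their H2A sum was highest in samples 1 too (16.6 and 16.2 CPM, against 10.7 to 14.3 CPM), the reverse of the members' H2A sum, as were their H1 sum (112 and 113 CPM, against 34.9 to 65.0 CPM) and H3 sum (3.83 and 3.39 CPM, against 2.08 to 2.47 CPM). The low H2A and H4 sums in samples 1 were thus not seen in the sums of the other histone genes. Their H1 sum was mostly *Hist1h1c* (34.0 to 110.1 CPM) and their H2B sum mostly *Hist1h2bc* (16.85 to 43.62 CPM), so these sums do not describe their whole class. Their H2A sum was mostly *Hist3h2a* (7.39 to 11.6 CPM), and single H2A genes went both ways. *Hist1h2ag* was lowest in samples 1 (0.176 and 0.318 CPM, against 0.327 to 0.883 CPM), as was *Hist1h2ai* (0.243 and 0.271 CPM, against 0.310 to 0.379 CPM). *Hist1h2ad* was highest there (0.514 and 0.411 CPM, against 0.248 to 0.302 CPM). These orders of the samples were noticed in the values and are given as a description.

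Divergent neighbours also differed in the order of the samples. The count of *Hist1h2bq* divided by that of *Hist1h2ao* was 0.694, 0.164 and 0.153 across *fat-1* and 0.641, 0.345 and 0.173 across WT, a range of 4.53-fold. The ratio of *Hist1h2br* to *Hist1h2ap* was 0.592, 0.158 and 0.15 across *fat-1* and 0.477, 0.305 and 0.161 across WT, a range of 3.95-fold. In both pairs samples 1 were the highest, WT sample 2 was between, and the genotypes overlapped. The ratio of *Hist1h2bp* to *Hist1h2an* was highest in *fat-1* sample 1 at 1.23 and was between 0.199 and 0.427 in the other 5 samples.

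The copies behaved in different ways. The ratio of *Hist1h2ao* to *Hist1h2ap* lay between 0.667 and 0.691 in all 6 samples, a range of 1.04-fold, with a chi-square statistic of 0.259 on 5 degrees of freedom for equal ratios. The ratio of these copies, though not the count of each, thus varied between samples by less than counting noise alone would give. Of their 100-base stretches, 92.7% and 92.2% occur elsewhere, mostly in each other. The ratio of *Hist1h2bq* to *Hist1h2br* ranged from 0.702 to 0.895 (chi-square 5.13 on 5 degrees of freedom). The ratio of *Hist1h4m* to *Hist1h4n* was 17.2, 38.3 and 42.8 across *fat-1* and 17.7, 16.3 and 41.5 across WT (chi-square 129 on 5 degrees of freedom), although the copies share 88.1% and 80.7% of their 100-base stretches and nearly all of the promoter window shown above.

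**Figure D3:**
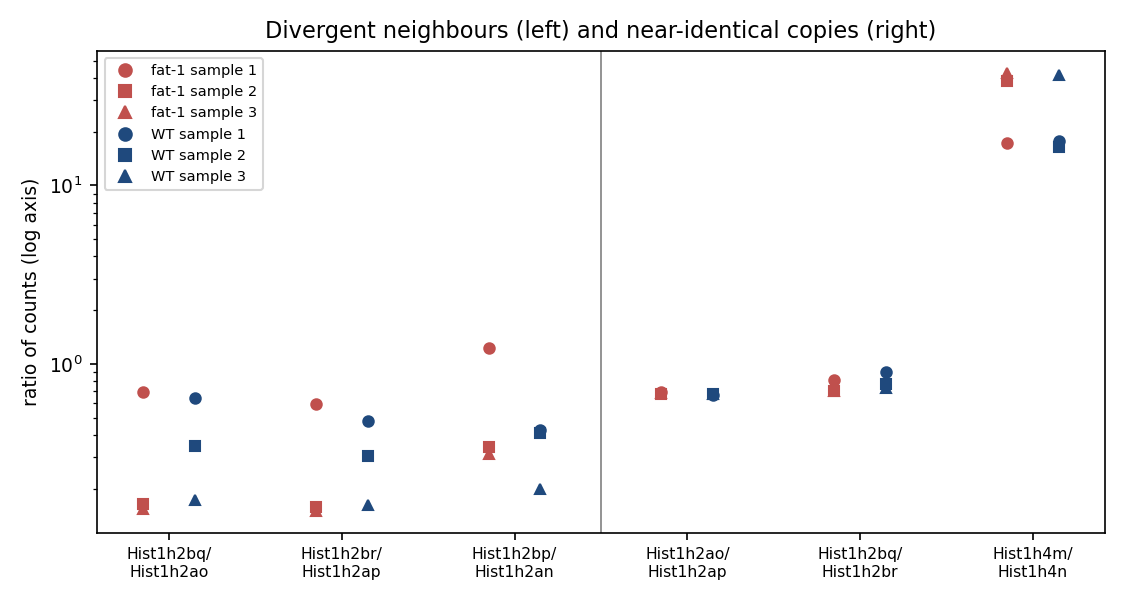
Ratio of the counts of 2 histone rows in each sample on a log axis, with divergent H2B and H2A neighbours to the left of the line and near-identical copies to the right (*fat-1* red, WT blue, marker shape for the sample number). The *Hist1h2ao* to *Hist1h2ap* ratio stays within 1.04-fold, while the *Hist1h2bq* to *Hist1h2ao* ratio spans 4.53-fold.

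In some of the 9 rows, but not in all, the order of the samples went with the summed markers of cell types. The summed luminal and basal markers were at 3554, 856 and 1551 CPM across *fat-1* and 2884, 1712 and 895 CPM across WT, and the summed immune markers at 606, 1302 and 1005 CPM and at 600, 720 and 1341 CPM. The sum of *Mki67* and *Top2a*, genes of dividing cells, came to 17.3, 40.5 and 45.7 CPM across *fat-1* and 17.1, 34.6 and 42.0 CPM across WT, lowest in samples 1 of both genotypes. The 9 rows were set against these 3 sums over the 6 samples, which gave 27 correlations with two-sided exact permutation *p*-values and Benjamini–Hochberg adjustment over the 27. These were computed after the order of the samples had been seen, and each sum is a share of the same library as the histone row.

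With the luminal and basal sum, *Hist1h2bp* had Pearson's r = 0.979 (exact permutation *p* = 0.0028, adjusted 0.03) and Spearman's rho = 0.943 (*p* = 0.0167, adjusted 0.1). *Hist1h2br* had r = 0.928 (exact permutation *p* = 0.0125, adjusted 0.0375) and rho = 0.829 (*p* = 0.0583, adjusted 0.131). The H2A gene *Hist1h2ap* went the opposite way, with r = −0.964 (exact permutation *p* = 0.0014, adjusted 0.03) and rho = −1.0 (*p* = 0.0028, adjusted 0.075), as did *Hist1h2ao* with r = −0.966 (exact permutation *p* = 0.0056, adjusted 0.03) and rho = −0.829 (*p* = 0.0583, adjusted 0.131). After leaving out the 2 samples farthest from the median of the marker sum, Pearson's r was 0.983 for *Hist1h2bp*, 0.630 for *Hist1h2br*, −0.867 for *Hist1h2ap* and −0.702 for *Hist1h2ao*. *Hist1h4m* had r = −0.824 (exact permutation *p* = 0.05, adjusted 0.0844) and rho = −0.829 (*p* = 0.0583, adjusted 0.131). For *Hist1h2an*, r was −0.551 with the luminal and basal sum, 0.375 with the immune sum and 0.506 with *Mki67* and *Top2a*. The exact permutation *p*-values were 0.25, 0.465 and 0.293 (adjusted 0.27, 0.465 and 0.304). *Hist1h4n* had r = 0.66 with the luminal and basal sum (exact permutation *p* = 0.186, adjusted 0.209). *Hist1h2al* had r = 0.753 with it (exact permutation *p* = 0.0861, adjusted 0.122), and −0.057 without the 2 farthest samples. The smallest adjusted *p*-value of the 27 rank correlations was 0.075 (exact permutation).

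With the immune sum, *Hist1h4m* had r = 0.979 (exact permutation *p* = 0.0097, adjusted 0.0375) and rho = 0.886 (*p* = 0.0333, adjusted 0.1), and r = 0.950 without the 2 farthest samples. The H2B rows went the opposite way, with r = −0.926 for *Hist1h2bp* (exact permutation *p* = 0.0097, adjusted 0.0375), −0.904 for *Hist1h2br* (exact permutation *p* = 0.0333, adjusted 0.06) and −0.891 for *Hist1h2bq* (exact permutation *p* = 0.0319, adjusted 0.06), and rho of −0.943, −0.714 and −0.771. Their r was −0.802, −0.986 and −0.971 without the 2 farthest samples. With *Mki67* and *Top2a*, *Hist1h2ao* had r = 0.935 (exact permutation *p* = 0.0125, adjusted 0.0375) and rho = 0.886 (*p* = 0.0333, adjusted 0.1), and r = 0.878 without the 2 farthest samples. *Hist1h2bq* had r = −0.982 (exact permutation *p* = 0.0042, adjusted 0.03) and rho = −0.943 (*p* = 0.0167, adjusted 0.1), and r = −0.911 without them. *Hist1h2ap* had r = 0.905 (exact permutation *p* = 0.0167, adjusted 0.045) and *Hist1h2br* r = −0.978 (exact permutation *p* = 0.0056, adjusted 0.03), with rho = 0.714 and −0.886. The other rows with a stem-loop transcript went both ways. *Hist1h4m* had r = 0.768 (exact permutation *p* = 0.108, adjusted 0.133). *Hist1h4n* had r = −0.762 (exact permutation *p* = 0.103, adjusted 0.133, rho = −0.771, and r = −0.987 without the 2 farthest samples). *Hist1h2bp*, which also has a transcript with a poly(A) signal, had r = −0.862 (exact permutation *p* = 0.0319, adjusted 0.06, rho = −0.771, and r = −0.439 without them). Whether the direction went with the type of 3′ end was not tested. In bulk samples, fewer cells of a type and less RNA per cell cannot be told apart, and the part of cell composition in these orders was not tested.

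**Figure D4:**
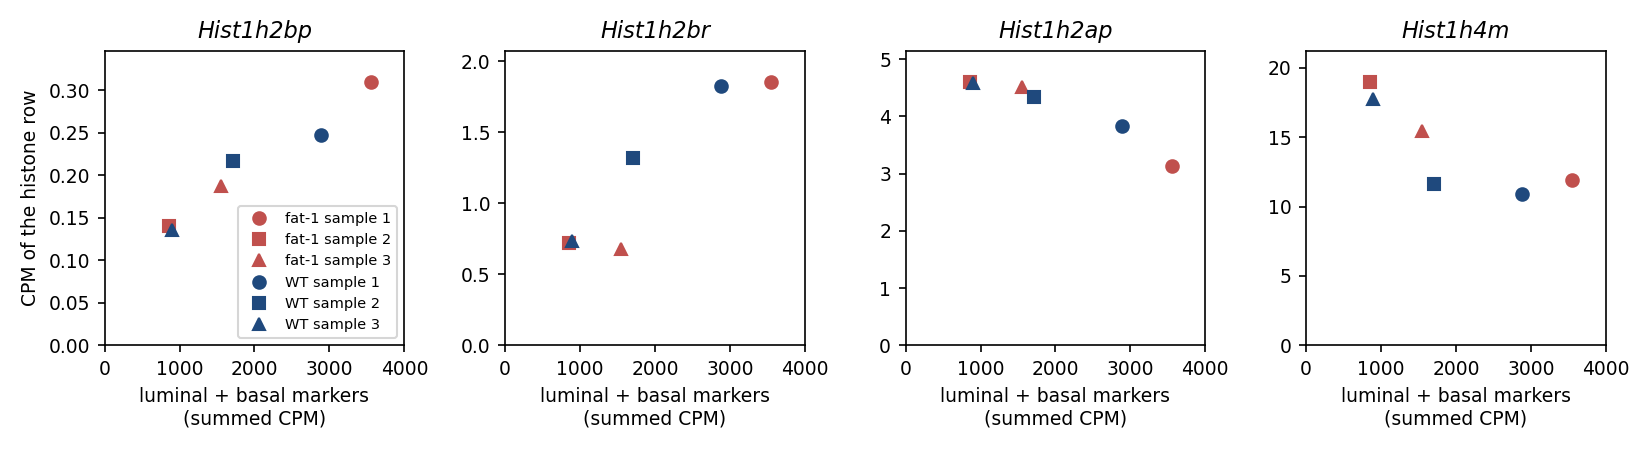
CPM of 4 histone rows against the summed CPM of luminal and basal marker genes in the 6 samples (*fat-1* red, WT blue, marker shape for the sample number). The H2B rows *Hist1h2bp* and *Hist1h2br* are highest and the H2A row *Hist1h2ap* and the H4 row *Hist1h4m* are low in samples 1 of both genotypes.

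The genes that make and use histone mRNA were examined as locus sums. Of 21 genes of histone mRNA transcription and 3′ processing, 13 had a positive and 8 a negative log2 fold change (median 0.03), and 0 passed the unadjusted threshold, against 1.14% of all tested loci. *Slbp*, which binds the stem-loop, had 69.8, 71.2 and 71.9 CPM across *fat-1* and 69.2, 72.6 and 77.7 CPM across WT, and its locus also holds *Tmem129*. *Npat*, the coactivator of histone gene transcription, had 36.5 ± 3.04 CPM in *fat-1* and 35.2 ± 0.778 CPM in WT (SD, n = 3), and *Casp8ap2*, a component of the bodies where histone mRNA is made, had 34.8 ± 4.25 and 35.6 ± 6.77 CPM (SD, n = 3). *Slbp* and *Npat* thus varied little between samples, and the sum over the 21 loci was between 1870 and 2028 CPM in all 6 samples. Several of these loci also hold other genes, such as *Atn1*, *Eno2* and *Grcc10* with *Rnu7*, *Stk40* with *Lsm10* and *Isca1* with *Zcchc6*. Their levels, and so the sum, are not those of the listed genes alone.

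Of 27 genes of S phase and DNA replication, 12 had a positive and 15 a negative log2 fold change (median −0.04), and 0 passed the unadjusted threshold. *Pcna*, the sliding clamp of DNA polymerases, had 124 ± 9.15 CPM in *fat-1* and 128 ± 4.39 CPM in WT (SD, n = 3), and its locus also holds *Tmem230*. *Mcm2*, a subunit of the replicative helicase, had 41.9 ± 4.72 and 41.2 ± 5.02 CPM (SD, n = 3). *Mki67* had 9.69, 21.9 and 24.8 CPM across *fat-1* and 9.29, 19.9 and 21.1 CPM across WT, and so varied far more between samples than between genotypes. Of 13 histone chaperone genes, 7 had a positive and 6 a negative log2 fold change and 0 passed the unadjusted threshold. Of 11 variant histone genes with polyadenylated mRNA outside the clusters, 4 were positive and 7 negative and 0 passed. *H3f3b*, which encodes the replacement histone H3.3, had 873, 614 and 653 CPM across *fat-1* and 758, 631 and 655 CPM across WT. *H2afz* (H2A.Z) had 89.4 ± 4.21 CPM in *fat-1* and 92.1 ± 10.5 CPM in WT (SD, n = 3), and *H2afx* (H2A.X, in a locus with *Dpagt1*) had 44.6 ± 2.92 and 46.6 ± 1.15 CPM (SD, n = 3).

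Other RNAs without a poly(A) tail were compared because they share this feature with most histone mRNAs. Of 7 tested loci of this kind, 4 passed the unadjusted threshold, against 1.14% of all tested loci. All 4 were lower in *fat-1*, and 0 passed the adjusted threshold (edgeR adjusted *p*-values of 1.00). The list summed to 21.2, 27.4 and 17.4 CPM across *fat-1* and 28.8, 385 and 218 CPM across WT, so WT samples 2 and 3 were high and WT sample 1 was close to *fat-1* sample 2. *Rn7s1*, *Rn7s2* and *Rn7s6*, copies of the RNA of the signal recognition particle, made up most of this. *Rn7s1* had 4.75, 5.48 and 3.53 CPM across *fat-1* and 6.80, 170 and 94.0 CPM across WT. *Rn7s2* lay close to it in every sample (171 CPM in WT sample 2), so these loci are not separate results. The fourth was 1 of 2 loci of *Terc*, the telomerase RNA, with 0.00948, 0.00932 and 0.00962 CPM across *fat-1* and 0.0935, 0.0530 and 0.0632 CPM across WT. The second *Terc* locus, too low to be tested, went the opposite way, with 0.0901, 0.0513 and 0.0433 CPM across *fat-1* and 0.0234, 0.0132 and 0.0146 CPM across WT. The tested *Terc* locus was near 0 in *fat-1* and passed the filter on low counts only through its WT levels, so the filter favoured its direction. These directions follow the genotype that the labels give each column. *Rn7sk* had 9.06, 13.4 and 8.37 CPM across *fat-1* and 11.7, 9.67 and 7.35 CPM across WT, and *Rmrp* had 0.656 ± 0.220 CPM in *fat-1* and 0.654 ± 0.215 CPM in WT (SD, n = 3). Across the same WT samples, the sum of the 9 histone rows was 22.4, 22.8 and 28.0 CPM, with *Hist1h4m*, *Hist1h2ao* and *Hist1h2ap* higher and the H2B rows lower in samples 2 and 3 than in sample 1.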

How the data were processed

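RNA was measured in 6 pooled samples, 3 *fat-1* and 3 WT, grouped by the sample labels. Reads were mapped by the authors to GRCm38 (HISAT2), and StringTie was used to assemble and quantify transcripts. The authors deposited estimated counts, which are whole numbers and not normalized. The annotation used, the use of strand and the method of RNA selection for the libraries are not given in the sources used here. The study describes its RNA as total RNA with coding and non-coding RNA, while the labels name total RNA and also an mRNA library. Nothing says that the pools came from separate litters or days, so *p*-values measure the spread between these pools only.

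For rows, edgeR 4.0.16 was run in R 4.3.3 (quasi-likelihood test, newer fit, genotype as the only term, filterByExpr, TMM, Benjamini–Hochberg adjustment over all 30683 rows, threshold 0.05), and locus sums in the same way over 24061 loci. The fit was tested on simulated counts that varied less between samples than these data. That test therefore does not show which changes could be detected here. DESeq2 1.42.0, other filters, normalizations and designs, and leaving out each sample were alternatives. Transcripts were from GENCODE (GRCm38) and promoters from RefSeq. The members and gene lists were chosen with earlier results of these data known. The named genes were, by rule, the highest row per kb of each class, the 10 highest rows (which takes in all 9), rows at the unadjusted threshold, the largest changes and the most variable row, and the related genes were a fixed set plus those at the unadjusted threshold. Figures used Python 3.11.15 and matplotlib 3.10.9.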

Additional observations from a re-analysis of the deposited data

How the results depend on the processing

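No histone row or locus sum passed the adjusted threshold in any alternative run, which were other normalizations, no filter on low counts, the older fit and the exact test of edgeR, DESeq2, the replicate block and leaving out each sample. Of 81 recomputed fold changes of the 9 rows, 73 kept their sign. Leaving out 1 sample gave 0 to 1 rows and 0 to 1 locus sums at the unadjusted threshold, and log2 fold changes from −0.28 to 0.31 for *Hist1h2bp*, −1.10 to 0.088 for *Hist1h2bq*, −0.88 to 0.073 for *Hist1h2br*, −0.13 to 0.12 for *Hist1h2ao*, −0.15 to 0.11 for *Hist1h2ap* and −0.44 to 0.023 for *Hist1h4n*, so the signs of these 6 rested on single samples. The same fits gave −0.85 to −0.24 for *Hist1h2an*, −0.68 to −0.07 for *Hist1h2al* and 0.03 to 0.45 for *Hist1h4m*. The log2 ratio of the summed rows ranged from −0.04 to 0.17, and was −0.13 without *Hist1h4m*. DESeq2 gave 3 of the other loci of RNA without a poly(A) tail an adjusted *p*-value at or under 0.05, and edgeR gave 0. The cause was not tested.

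With replicate numbers as a block, 0 rows passed either threshold. Samples with the same number did not deviate together in every pair (r = 0.799, −0.164 and 0.132 for numbers 1, 2 and 3), so the numbers were not taken to pair the samples. Alternatives were added after the data were seen, all 70 histone genes (log2 ratio of the sum −0.09) and leaving out *Hist1h2al* (0.06). The planned exclusion of pseudogene rows by symbol removed no row, and the planned restriction to loci with 1 histone symbol and no other symbol kept all 9. Counts were lowest for *Hist1h2al* (14 to 34 per sample), where counting error adds to the spread between samples.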
